A study of Homo sapiens with 8 samples.

Results

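Chromosome 12 was followed here window by window in SON TSA-seq data from 786-O cells, leaving out the interval from 57.35 to 57.85 Mb on hg19 around NDUFA4L2. The windows were taken from the 9 sets of 100 kb windows, each set shifted by 10 kb, and every window that shared at least 1 bp with that interval was dropped. This gave 11980 of the 278316 windows of the whole series, from position 1 to 133780000. 786-O is an established human clear cell renal carcinoma line without functional VHL, so that HIF-2α, the hypoxia-inducible transcription factor that VHL marks for degradation, stays active in ordinary oxygen. All cells were grown in the same serum-containing medium under atmospheric oxygen. The PT2399 group received 2 µM of this HIF-2α inhibitor for 3 h, and the DMSO group received the vehicle for 3 h. Each treatment had 2 SON pulldown libraries and 2 inputs, 8 libraries in all, and in 4 of the 8 the title and the antibody or treatment field disagreed, in which case the title was followed. The values are the authors' mean log2 concentration of SON signal per treatment and window, called the level here. No value per library was analysed, so depth is unknown and the spread over replicates is too. The only measure of error is the FDR of the authors' deposited tables. Separate cultures are not stated for the replicates in the labels, so that FDR may cover technical spread only.

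Nuclear speckles are bodies in the nucleus that are rich in splicing factors, with SON as a core protein, and many highly active genes lie beside them. In TSA-seq a peroxidase brought to SON by antibody staining spreads biotin over nearby chromatin, so the pulled-down DNA is a graded measure of closeness to speckles. Along a chromosome, gene-dense segments usually alternate with gene-poor segments that lie near the nuclear lamina, and SON signal follows that alternation. Chromosome 12 carries both kinds, among them the gene-dense segment that holds the HOXC and type II keratin genes on the long arm.

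Genes on chromosome 12 in the authors' deposited lists of genes at lower windows include neighbouring pairs that were listed for both window sizes, and the promoters of these pairs are shown for the HIF motif at listed genes. Of the protein-coding genes listed at both sizes outside the run of genes around NDUFA4L2, 4 stand beside another such gene: CACNB3, a calcium channel subunit, with DDX23, an RNA helicase of the spliceosome, and CSAD, an enzyme of taurine synthesis, with ZNF740, a zinc finger protein. Each sequence covers 250 bases before to 50 after the gene's start, 5′ to 3′ on the gene's strand, from RefSeq on GRCh38.p14, a build other than that of the windows. CACNB3 is at chr12:48814230-48814529 on the plus strand, DDX23 at chr12:48852114-48852413 on the minus strand, CSAD at chr12:53180597-53180896 on the minus strand and ZNF740 at chr12:53180472-53180771 on the plus strand. Capitals mark the core of the hypoxia response element that HIF proteins bind, searched as ACGTG and GCGTG on both strands, with overlapping matches counted separately.
CACNB3: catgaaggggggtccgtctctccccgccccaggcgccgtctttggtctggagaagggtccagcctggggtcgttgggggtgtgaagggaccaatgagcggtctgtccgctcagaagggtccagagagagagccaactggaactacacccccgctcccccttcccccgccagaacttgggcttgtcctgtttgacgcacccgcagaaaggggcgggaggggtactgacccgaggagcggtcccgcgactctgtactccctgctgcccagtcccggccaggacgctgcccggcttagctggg
DDX23: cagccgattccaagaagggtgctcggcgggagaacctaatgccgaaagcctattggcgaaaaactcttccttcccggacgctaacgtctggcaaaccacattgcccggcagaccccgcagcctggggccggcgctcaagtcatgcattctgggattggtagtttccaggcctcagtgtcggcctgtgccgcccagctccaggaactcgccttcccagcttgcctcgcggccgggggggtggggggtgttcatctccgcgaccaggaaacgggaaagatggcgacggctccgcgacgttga
CSAD: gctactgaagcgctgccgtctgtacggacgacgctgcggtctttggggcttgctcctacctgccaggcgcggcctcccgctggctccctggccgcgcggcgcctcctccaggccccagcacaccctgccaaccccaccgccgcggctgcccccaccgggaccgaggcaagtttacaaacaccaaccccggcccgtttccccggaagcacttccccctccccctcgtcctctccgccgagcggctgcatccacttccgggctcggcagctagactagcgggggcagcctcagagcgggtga
ZNF740: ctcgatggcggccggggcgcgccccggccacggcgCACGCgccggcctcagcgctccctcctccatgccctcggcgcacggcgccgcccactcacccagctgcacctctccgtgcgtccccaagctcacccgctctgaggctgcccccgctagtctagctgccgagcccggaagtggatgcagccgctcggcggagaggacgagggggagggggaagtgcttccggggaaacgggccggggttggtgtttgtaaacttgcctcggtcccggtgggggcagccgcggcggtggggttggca
In these 4 sequences the search found 1 match, in ZNF740 on the opposite strand, and 0 in CACNB3, DDX23 and CSAD. The table holds 3 promoters of CACNB3, of which the first is shown and 1 of the others has a match. The CSAD and ZNF740 windows lie on opposite strands and share 175 bases, so these 2 sequences are not independent. Of the 58 chromosome 12 genes listed outside the NDUFA4L2 run, 42 had a promoter in the table, 55 promoters in all, and 33 of the 55 held a match (60.0%). The share was 45.7% of the 1714 promoters of chromosome 12 and 48.4% of all 35116. By gene, 28 of the 42 had a match in at least 1 promoter, against 675 of the 1353 genes of chromosome 12. Some genes have several promoters and some promoters overlap, and no test of these shares was made. The 16 genes without a promoter in the table include SLC2A3 and SCARB1, the 2 listed HIF targets. A match is a string of letters and not a bound site.

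The level along chromosome 12 alternated between long stretches of high signal and long stretches at the floor. Of the 11980 windows, 5306 were measured, meaning a level of at least 2 on the log2 scale in both treatments, and 6067 were at the floor, with a mean level below 0. The floor is the lowest value listed, -0.11 with PT2399 and -0.07 with DMSO. A further 248 windows reached the minimum with PT2399 only and 316 with DMSO only, and 43 lay above the floor but under the minimum in both. The floor share of chromosome 12 was 50.6%, against 61.4% over the other autosomes, and between 50.3% and 50.8% in the 9 overlapping window sets. Over the 22 autosomes the share ran from 7.93% to 87.3%, and chromosome 12 had the seventh lowest. The median level of its measured windows was 8.56 with PT2399 and 8.67 with DMSO, against 8.56 with PT2399 and 8.66 with DMSO on the other autosomes. Chromosome 12 thus had a larger share of windows with signal than the other autosomes together, while its measured windows had nearly the same median level. No test was made between chromosomes, because neighbouring windows are not independent. Windows in unsequenced or unmappable parts of a chromosome were not told apart from other floor windows, and their part in the floor shares was not tested.

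Of the 27 bins of 5 Mb, 6 had no window at the floor and 3 had every window there. The bins without floor windows were those at 1 to 5000000, at 50000001 to 55000000 and the 4 consecutive bins from 105000001 to 125000000. The bins wholly at the floor began at 20000001, 35000001 and 85000001, the second of them at the centromere. The longest floor stretch, 12.88 Mb from 80400001 to 93280000, held no window with a mean level above 0. The next, 9.76 Mb from 32820001 to 42580000, spans the centromere. The longest measured stretches were 10.96 Mb from 104050001 to 115010000, 9.18 Mb from the start of the chromosome to 9180000, and 7.97 Mb from 47260001 to 55230000.

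By mean level, the 5 highest stretches all lay on the long arm, while the highest single window, with a mean level of 11.6, lay in the measured stretch that opens the short arm. Among stretches of adjoining measured windows, the highest mean level belonged to the stretch from 55920001 to 57350000, with 10.33 for PT2399 and 10.52 for DMSO, which ends at the left-out interval. The stretch from 57850001 to 58400000, on its far side, had 9.89 with PT2399 and 10.25 with DMSO. Next came 119170001 to 125850000, with 9.76 with PT2399 and 9.98 with DMSO. The stretch from 47260001 to 55230000 had 9.60 with PT2399 and 9.77 with DMSO. The last of the 5 highest, from 130800001 to 133780000 at the end of the long arm, had 9.55 with PT2399 and 9.71 with DMSO. In all 5 the PT2399 mean was the lower, by less than 0.4 on the log2 scale. The 123 measured stretches had a median length of 0.14 Mb, so most of them were short islands between floor or near-floor windows.

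Across chromosome 12, the SON level was slightly lower with PT2399 than with DMSO, as it was over the whole series. The median change, PT2399 minus DMSO, over the 5306 measured windows was -0.15 (quartiles -0.35 and 0.04), and the 9 sets ran from -0.16 to -0.14. It was -0.12 over the 81692 measured windows of the other autosomes, with quartiles of -0.33 and 0.08. On chromosome 12, 71.0% of measured windows had the lower value with PT2399, against 67.5% on the other autosomes. Over all measured windows of the series the median change was -0.13, and the part that scaling between the treatments has in that shift was not tested. Relative to the shift of each set, the median change on chromosome 12 was -0.02 and 53.3% of its measured windows were below it.

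Matched on level, chromosome 12 differed little from the other autosomes. Each measured window was set against the median change of the windows of the other autosomes in the same of 20 level bins of the same set. The median of these differences was -0.03, and between -0.04 and -0.02 in the 9 sets. The same value for each of the 22 autosomes ran from -0.06 for chromosome 1 to 0.14 for chromosome 18, and 4 autosomes had a lower value than chromosome 12. Chromosome 20 had the same value, -0.03. In 5 classes of level that split the windows of the other autosomes evenly, the chromosome 12 median was -0.27 at levels of 6.76 to 8.04, against -0.12 elsewhere. At levels of 9.12 to 10.14 it was -0.12, against -0.14 elsewhere. In the top class, from 10.15, it was -0.16, against -0.12 elsewhere, and 94.7% of the 1035 chromosome 12 windows there were lower with PT2399, against 88.0% of 16440. The quartile range of the change narrowed from 1.92 in the lowest class to 0.12 in the top class on chromosome 12, and from 1.88 to 0.14 elsewhere.

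**Figure D1:**
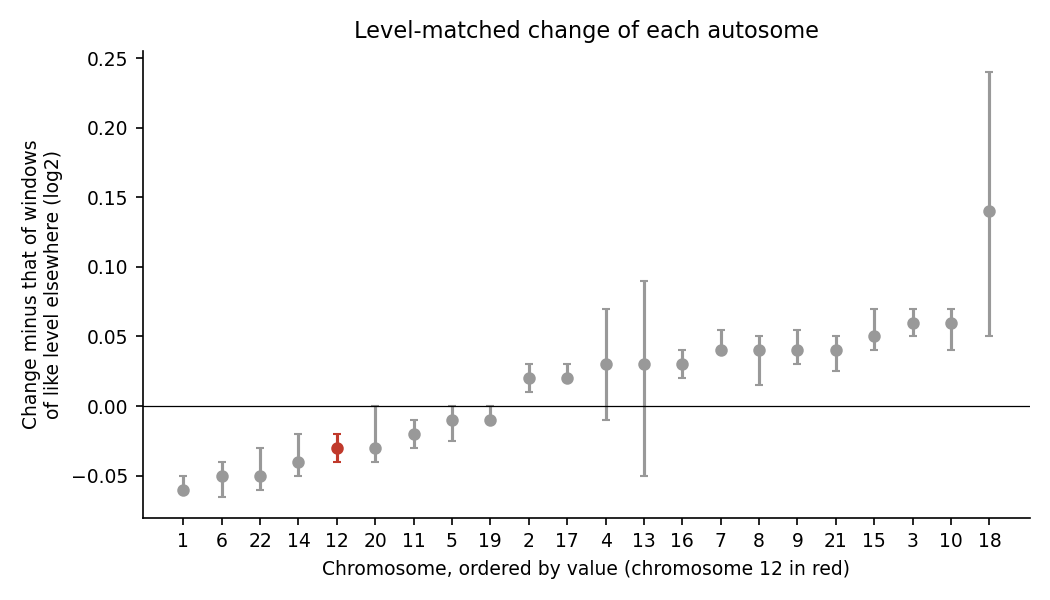
Each point is an autosome's median change minus the median change of windows of like level on the other autosomes (log2, PT2399 minus DMSO), and bars give the range over the 9 overlapping window sets. Chromosome 12, in red, is at -0.03 among values from -0.06 to 0.14.

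Along the chromosome the change was not even. Of the 27 bins, 4 had no measured window, 2 had fewer than 20, and 21 had 20 or more. Among these 21, the median change was below 0 in 18 (85.7%) and above 0 in 3, against 284 of 383 such bins on the other autosomes (74.2%). In 13 of the 21 it was below 0 in every window set. Relative to the shift of each set, 12 of the 21 were below 0 and 9 above, so the balance of signs rests on that shift.

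The lowest median was that of the bin at 10000001 to 15000000, which holds bitter taste receptor genes and most natural killer receptor genes of the short arm. Its 174 measured windows had a median level of 7.44 with PT2399 and 8.03 with DMSO, a median change of -0.56 that ran from -0.82 to -0.33 over the sets. On the other autosomes 15 of 383 bins were as low. Of the 174 measured windows, 134 lay in the stretch from 11680001 to 13260000, while the stretch from 10840001 to 11700000 was at the floor. No gene was placed in a window, so the median is not a value for the receptor genes. The bin at 65000001 to 70000000 had a median level of 7.07 with PT2399 and 7.43 with DMSO and a median change of -0.32. The bin at 100000001 to 105000000 had 7.45 with PT2399 and 7.95 with DMSO, with a median change of -0.28 over 88 measured windows.

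The 3 bins with a median above 0 lay in low-signal parts of the long arm. The bin at 90000001 to 95000000 had a median level of 6.12 with PT2399 and 5.98 with DMSO over 74 measured windows, and a median change of 0.42, with sets from -0.11 to 0.96. The next bin, to 100000000, had 6.41 with PT2399 and 6.34 with DMSO and a median change of 0.16, with sets from -0.16 to 0.64. The bin at 60000001 to 65000000 had 7.16 with PT2399 and 6.86 with DMSO and a median change of 0.13, with sets from -0.16 to 0.39. The sign of all 3 thus depended on the window set. With bins shifted by 2.5 Mb, 21 of 22 bins had a median below 0.

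The bins of high level had narrower changes, with medians all below 0. In the bin at 120000001 to 125000000 the median level was 10.32 with PT2399 and 10.50 with DMSO, with a median change of -0.19 and 97.8% of 450 windows lower with PT2399. Of 100 bins of the other autosomes with a median level of at least 9, 2 had as large a share of lower windows. Those 100 include bins of lower level than this one. On the other autosomes the quartile range of the change was 0.24 at levels of 9.12 to 10.14 and 0.14 from 10.15. Matched on level, the median difference of the bin at 120000001 to 125000000 was -0.05. The bin at 50000001 to 55000000, where the HOXC and type II keratin genes lie, had 9.84 with PT2399 and 10.06 with DMSO, with a median change of -0.17 and 86.9% of windows lower. By contrast the bin at 110000001 to 115000000, with 9.56 with PT2399 and 9.59 with DMSO, had a median change of -0.06, and the first bin of the short arm, with 8.91 with PT2399 and 9.05 with DMSO, had -0.05. The 6 chromosome 12 bins with a level of at least 9 had median changes from -0.23, at 55000001 to 60000000 without the left-out interval, to -0.06, inside the range from -0.29 to 0.28 of the 100 such bins elsewhere. Across the 21 bins, Spearman's rho between median level and median change was -0.12 and Pearson's r -0.26, given as a description, since the bins share libraries and their windows overlap.

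**Figure D2:**
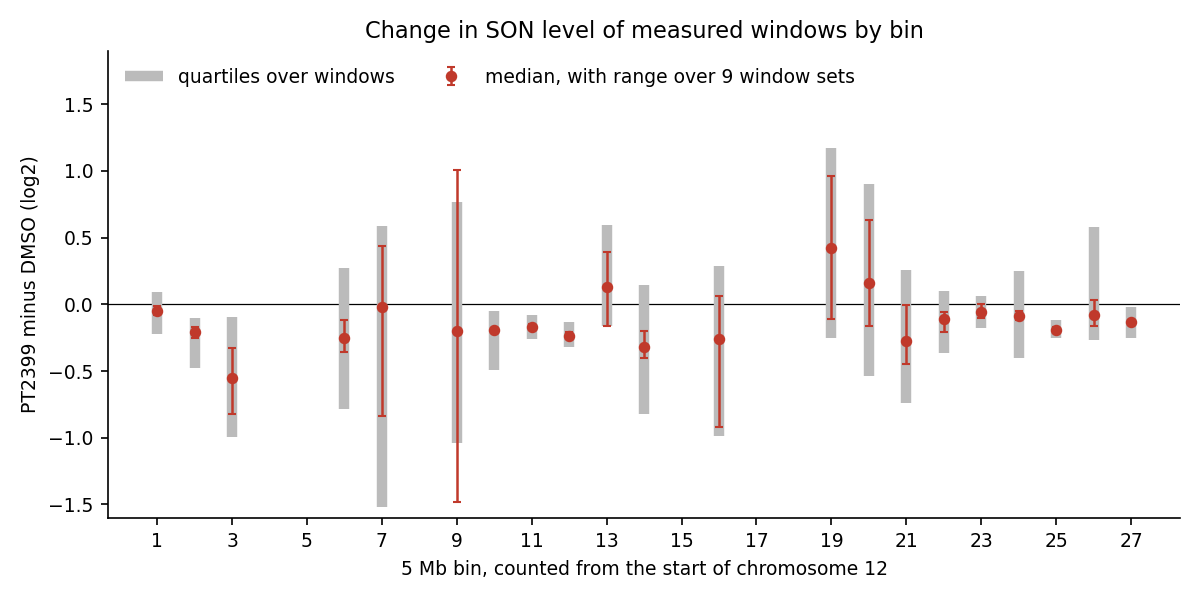
For each 5 Mb bin with at least 20 measured windows, the red point is the median change (log2, PT2399 minus DMSO), the red bar its range over the 9 window sets and the grey bar the quartiles over windows. Bins of high SON level, such as 11 and 25, have narrow bars just below 0, while bins 7, 9 and 19 spread widely on both sides.

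At an FDR of at most 0.01 in the authors' deposited tables, 86 measured windows of chromosome 12 were lower with PT2399 and 1 was higher. This is 1.62% of its measured windows for lower calls, against a background of 1.55% over the whole series and 1.58% on the other autosomes. For the higher call it is 0.0188%, against 0.0853% over the series and 0.093% on the other autosomes. From the rate of lower calls at each level on the other autosomes, 83.8 lower windows would be counted, so the share of lower calls was near the background. All 86 were in the authors' deposited list of lower windows, which held 86 chromosome 12 windows outside the interval. The lower windows merged into 29 regions, numbered here along the chromosome, that covered 3.8 Mb. Of these, 13 rested on 1 window, and 6 were called in at least 5 of the 9 sets. After each set was recentred on its shift, with standard errors worked back from each deposited change and its p-value, 4 lower regions and 0 higher ones were left at a Benjamini-Hochberg adjusted p of at most 0.01 in that normal test.

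The called regions were split here into 2 groups by DMSO level, after their values were seen. On chromosome 12 the quartile range of the change was 1.92 in the lowest level class and 0.12 in the top class. Smaller changes could thus reach the FDR limit at high level, and the part this has in the contrast below was not tested. In 17 regions the best window had a DMSO level of at least 9, and its change lay between -0.90 and -0.26, with a median of -0.39. In the other 12 the DMSO level was below 9 and the change lay between -4.94 and -1.34, with a median of -2.70. In 5 of these 12 the PT2399 level was below 4. Of the 17, 8 lay in the bin at 120000001 to 125000000.

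**Figure D3:**
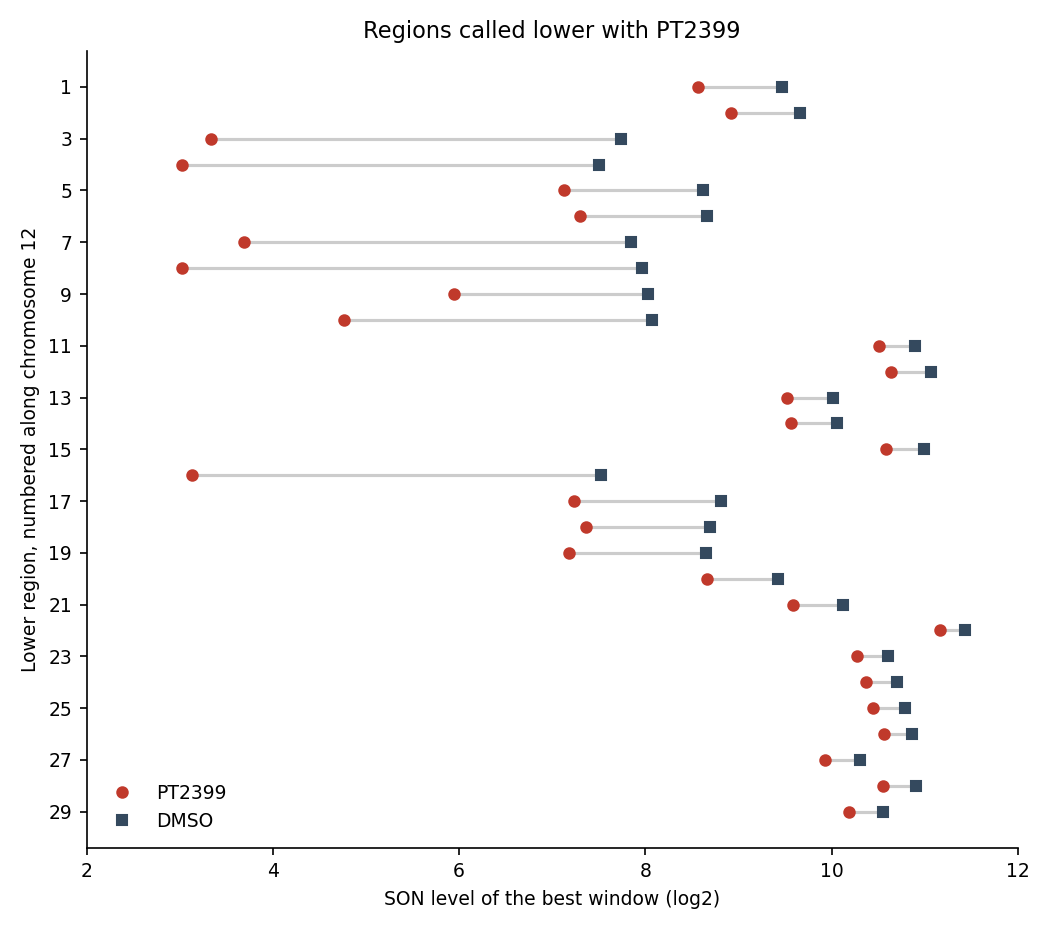
Each row is a region called lower with PT2399, numbered in order along chromosome 12, with the level (log2) of its best window for PT2399 (circle) and DMSO (square). Regions with a DMSO level of at least 9 have short lines, and the longest lines, among them those of regions 8 and 16, end at PT2399 levels near 3.

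Region 15, at 57880001 to 58050000, had the lowest FDR. Its best window had a level of 10.58 with PT2399 and 10.99 with DMSO, which is 75.3% of the signal with DMSO (change -0.41, FDR 1.04e-05 in the authors' deposited table). It lies just beyond the left-out interval, and when the windows there are put back it joins them in a lower region from 57730001 to 58050000, in which 7 of 14 called windows touch that interval. Region 15 is therefore not separate from the called windows of the interval. It was called in 7 sets, and all 7 windows inside it had changes between -0.41 and -0.31.

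Regions 11 to 14 lay in the gene-dense segment before it. Region 12, at 53460001 to 53640000, had 10.64 with PT2399 and 11.07 with DMSO in its best window, a difference of -0.43 (FDR 2.29e-05 in the authors' deposited table), and was called in 8 sets. Measured windows within 500 kb on either side had a median change of -0.21. Region 11, at 49120001 to 49300000, had 10.51 with PT2399 and 10.90 with DMSO, a difference of -0.39 (FDR 0.000364 in the authors' deposited table), also in 8 sets, with a flanking median of -0.14. Region 13, from 53880001 to 54240000, was the longest, and its 24 windows ran from -0.50 to -0.27. The best window of region 14, at 54470001 to 54570000, likewise changed by -0.50 in the authors' deposited table, from 1 set. After recentring the best windows of regions 11 and 12 were at -0.26 and -0.31, with lowest adjusted p-values of 0.103 and 0.0157 in the normal test with implied errors.

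Toward the end of the long arm, region 28, at 124720001 to 124870000, had 10.55 with PT2399 and 10.91 with DMSO (change -0.36, FDR 0.000343 in the authors' deposited table) and was called in 6 sets. Region 21, at 120120001 to 120250000, had 9.59 with PT2399 and 10.12 with DMSO, a difference of -0.53 (FDR 0.00107 in the authors' deposited table). Near the tip of the short arm, region 1, at 400001 to 540000, had 8.57 with PT2399 and 9.47 with DMSO, which is 53.6% of the signal with DMSO (change -0.90, FDR 0.000508 in the authors' deposited table). Its 5 windows ran from -0.90 to -0.73, while the flanking windows had a median of -0.14. The median change of the bin that holds region 1 was -0.05. Flanking windows were less negative at all 29 lower regions, which were picked for their drop, so this contrast does not set region 1 apart. After recentring the lowest adjusted p-value of region 1 was 0.0158 in the normal test with implied errors.

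The remaining 4 of the 10 regions of lowest FDR had large losses from lower levels, and these 4 are the ones that were still called after recentring. Region 8, at 31410001 to 31510000, had 3.02 with PT2399 and 7.96 with DMSO, a difference of -4.94 (FDR 0.000101 in the authors' deposited table). Region 16, at 64220001 to 64320000, had 3.13 with PT2399 and 7.52 with DMSO, a difference of -4.39 (FDR 0.000163 in the authors' deposited table). Region 5, at 11950001 to 12060000, had 7.13 with PT2399 and 8.62 with DMSO, a difference of -1.49 (FDR 0.000913 in the authors' deposited table), within the bin of lowest median. Region 10, at 46660001 to 46820000, had 4.76 with PT2399 and 8.07 with DMSO, a difference of -3.31 (FDR 0.000948 in the authors' deposited table). Regions 8 and 16 were called in 1 set each, and regions 5 and 10 in 2 sets each. After recentring each of these 4 regions rested on 1 window. Their lowest adjusted p-values after recentring ran from 0.00115 for region 8 to 0.00944 for region 5, in the normal test with implied errors. The other 19 regions had best changes from -4.48 to -0.26 and FDR values from 0.00129 to 0.00986 in the authors' deposited tables.

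Around regions 8 and 16 the called windows sat beside windows at the floor with PT2399, whereas region 5 lies inside a stretch measured throughout, from 11680001 to 13260000. The window that starts 10 kb before region 8 had -0.11 with PT2399, the floor, and 8.02 with DMSO (FDR 4.34e-08 in the authors' deposited table). It was left out of the measured windows, although its FDR was lower than that of any measured window of chromosome 12. The window at 31420001 to 31520000, which overlaps region 8, had a change of -3.38 but was not called (FDR 0.288 in the authors' deposited table). In the 12 windows inside 31360001 to 31580000, PT2399 levels ran from -0.11 to 6.46 and DMSO levels from 7.04 to 8.24. PT2399 was lower in all 12, and 2 of these 12 windows were called. Just before them, in the 17 windows inside 31110001 to 31380000, PT2399 was higher in all 17, with a median of 8.02 against 6.99 with DMSO, and 2 windows had DMSO at the floor, none of them called. Region 16 had the same arrangement the other way round. In the 10 windows inside 64180001 to 64380000 PT2399 was lower in all 10, and in the 16 windows inside 64310001 to 64570000 PT2399 was higher in all 16, with a window at 64380001 to 64480000 that had 7.08 with PT2399 and -0.07 with DMSO (FDR 0.000532 in the authors' deposited table). These stretches were picked after their values were seen, and the windows within them overlap.

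Outside the measured windows, 15 windows in 10 regions were called lower and 13 windows in 7 regions higher, which is 0.225% and 0.195% of the 6674 windows under the minimum in a treatment, against backgrounds of 0.163% and 0.164% over the series. In 9 of the 10 lower ones, PT2399 was at the floor in the best window. The tenth, at 114920001 to 115060000, had 0.91 with PT2399 and 7.28 with DMSO (FDR 0.000109 in the authors' deposited table). Windows that reached the minimum in 1 treatment only were unevenly placed. The bin at 90000001 to 95000000 had 51 with PT2399 only and 15 with DMSO only, and that at 125000001 to 130000000 had 38 with PT2399 only and 23 with DMSO only. The bin at 55000001 to 60000000 had 7 with PT2399 only and 36 with DMSO only, and that at 30000001 to 35000000 had 6 with PT2399 only and 29 with DMSO only. Over chromosome 12 the ratio of PT2399-only to DMSO-only windows was 0.785, against 1.17 on the other autosomes, and 3 autosomes had a lower ratio.

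The only measured window called higher was at 95330001 to 95430000, with 7.98 with PT2399 and 5.71 with DMSO, a difference of 2.27 (FDR 0.0097 in the authors' deposited table). It lay in a longer stretch of higher signal. From 94900001 to 95500000, 45 of 46 windows were higher with PT2399, with levels from 5.46 to 8.08 and a median of 7.12, against -0.07 to 6.73 and a median of 5.45 with DMSO. DMSO was at the floor in 9 of the 46 windows and PT2399 in 0. In all 7 windows of the stretch were called higher, 6 of them with DMSO at the floor in 2 regions at 94930001 to 95040000 and 95100001 to 95230000, whose best windows had 7.22 and 7.17 with PT2399 (FDR 0.00036 and 0.000212 in the authors' deposited tables). This stretch was picked because it held the called window.

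**Figure D4:**
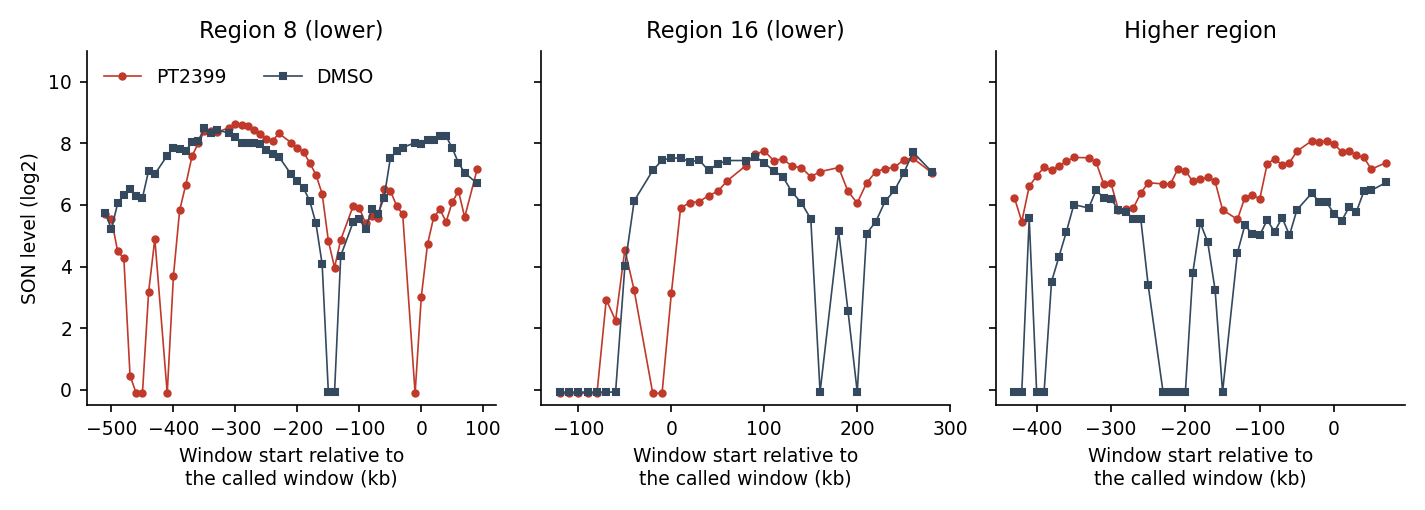
SON level (log2) of successive overlapping 100 kb windows with PT2399 (circles) and DMSO (squares), against the distance in kb from the start of the called window, around region 8, region 16 and the higher window. Around regions 8 and 16 both treatments reach the floor, PT2399 also in the window just before the called one, while around the higher window DMSO reaches it and PT2399 does not.

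In the 50 kb windows, shifted by 5 kb, 10532 of 23986 chromosome 12 windows were measured, with the same median change of -0.15. The lower calls were 35 windows in 16 regions, 0.332% of measured windows against a background of 0.357%. The higher calls were 1 window of the 10532 measured, in 1 region, against a background of 52 of 178559 windows over the series (0.0291%). Of the 16 lower regions, 12 (75%) overlapped a 100 kb lower region, and the same comparison from the 100 kb side gave 12 of 29 (41.4%). The 2 sizes share their libraries. Region 12 was again among them, with a best 50 kb window at 53530001 to 53580000 that had 9.36 with PT2399 and 9.96 with DMSO (change -0.60, FDR 0.000158 in the authors' deposited table). At 104900001 to 104975000 the best window had 4.16 with PT2399 and 7.68 with DMSO (FDR 0.000223 in the authors' deposited table). The 4 lower regions found at 50 kb alone lay at 8075001 to 8125000, 10755001 to 10805000, 124025001 to 124075000 and 130010001 to 130060000. The higher 50 kb region, at 118060001 to 118110000, had 7.04 with PT2399 and 2.33 with DMSO (FDR 0.00697 in the authors' deposited table) and overlapped no called 100 kb window.

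The authors' deposited gene lists name 86 chromosome 12 genes at lower windows, 83 in the 100 kb list and 23 in the 50 kb list. Of these, 28 form the run of neighbours from RDH16 to B4GALNT1 that holds NDUFA4L2. With no gene positions on hg19 that run could not be divided between the left-out interval and region 15, and it was set aside. The other 58 genes fall into 24 groups of neighbours, with at most 5 coding genes between successive members. Of the 996 protein-coding genes of chromosome 12 outside the run, 46 (4.62%) stood in the authors' deposited 100 kb list, against 4.35% of the genes of the other autosomes. In the 50 kb list 11 did (1.10%), against 1.11% elsewhere. No run of listed genes was set aside on the other autosomes, so these shares are not on equal terms. With the run kept, 72 of the 1024 coding genes of chromosome 12 (7.03%) were in the 100 kb list and 21 (2.05%) in the 50 kb list. The genes are given here in their order along the chromosome, without a fold of their own, since none could be placed in a window.

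On the short arm the authors' deposited lists open with KDM5A, a histone demethylase, and CCDC77, followed by KCNA5, a potassium channel, and CD163L1, a scavenger receptor. SLC2A3, the glucose transporter GLUT3, was in the 50 kb list only. CLEC4D and CLEC4E, lectin receptors of myeloid cells, came next, and then MAGOHB, a part of the exon junction complex, at 50 kb only. They were followed by LRP6, a co-receptor for Wnt proteins, TSPAN11, SINHCAF, a subunit of the Sin3 deacetylase complex, and BICD1, a dynein adaptor. SINHCAF was in both lists.

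On the long arm SLC38A1 and SLC38A2, which carry glutamine and other neutral amino acids, head the listed genes. The group of ADCY6, CACNB3, DDX23, RND1 and DRC2 comes next, and then SPRYD3, IGFBP6, SOAT2, CSAD, ZNF740, ITGB7 and RARG. IGFBP6 binds insulin-like growth factors, SOAT2 esterifies cholesterol and RARG is a retinoic acid receptor. MAP3K12, TARBP2, NPFF, ATF7, ATP5MC2 and CALCOCO1 follow, of which TARBP2 works with Dicer and ATP5MC2 is a subunit of ATP synthase. Beyond the run that was set aside are SRGAP1, FRS2, an adaptor of fibroblast growth factor receptors and in both lists, RIC8B and MYL2. The last groups hold GCN1, RPLP0 and PXN, RNF10 and POP5, HPD and PSMD9, DENR and CCDC62, TMED2 at 50 kb only, and RFLNA with SCARB1. GCN1 takes part in the response to amino acid shortage, PXN encodes the focal adhesion protein paxillin, HPD breaks down tyrosine and SCARB1 is the receptor for high-density lipoprotein. RFLNA was in both lists.

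Members of the gene lists compiled for chromosome 12 were counted in the authors' deposited lists by function, to be read beside the shares of 4.62% at 100 kb and 1.10% at 50 kb over its coding genes outside the run. At those shares a list of this size would hold about 0 or 1 listed gene, so the counts set no list apart. Of 7 HIF targets, SCARB1 was listed at 100 kb and SLC2A3 at 50 kb, while GAPDH, TPI1 and ENO2, glycolytic enzymes, BHLHE41, a transcriptional repressor, and KITLG, the ligand of the receptor KIT, were in neither. Of 10 genes of glycolysis and glucose uptake, SLC2A3 alone was listed. Of 9 lipid and sterol genes, SCARB1 and SOAT2 were listed at 100 kb. Of 10 RNA processing genes, DDX23 was listed at both sizes. None of 12 cell cycle and growth genes, 10 renal tubule genes, 6 interferon response genes and 10 genes of the HOXC cluster was in either list. Nor was any of 27 genes of the type II keratin cluster, 18 genes of the natural killer complex, 14 bitter taste receptors and 17 olfactory receptors. Whether the windows of an unlisted gene were measured could not be read without gene positions on hg19.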

How the data were processed

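SON TSA-seq libraries of 786-O cells were compared between PT2399 and DMSO, with 2 SON pulldowns and 2 inputs per treatment. Bowtie2, Picard, bedtools, DiffBind and the hg19 build are named in the submitters' processing notes. Versions, settings, scaling and the use of inputs were not given in the sources used here. Each deposited table holds, per the file headers, log2 concentrations per window (DMSO as control, PT2399 as treatment), a log2 fold, and a p-value with an FDR. The deposited fold equals control minus treatment to within 0.01, and changes here are PT2399 minus DMSO.

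The members and lists were chosen with earlier results of these data known. Windows were called at an FDR of up to 0.01 in the deposited values, among windows with a level of at least 2 in both treatments, and those of 1 direction were merged over the 9 sets on an overlap of at least 1 bp. Bins took windows by midpoint. Recentring subtracted each set's median change, took as standard error the absolute change over the z value of its deposited p-value, and adjusted within sets. Changes under 0.1, or p-values of at least 0.5, took the median error of their level bin of 20. The procedure was run on simulated data whose noise was drawn from these same implied errors, with changes planted at high levels only. That run cannot check the errors or the normal model, nor calls at lower levels. Regions were named by lowest FDR (10 per direction) and bins by their 3 highest and 3 lowest medians. Regions 13 and 14, the 50 kb regions and the bins of high level were added after their values were seen. Genes were named from the deposited lists and the compiled lists, with symbols and order from a RefSeq table of GRCh38. Of 1023 and 258 listed symbols, 986 and 252 matched. Each gap of at most 5 coding genes joined neighbours. Software was Python 3.11.15 with scipy 1.17.1, pandas 2.3.3, numpy 2.4.6 and matplotlib 3.10.9.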

Additional observations from a re-analysis of the deposited data

How the results depend on the processing

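No paired analysis was possible because the tables hold group values only, and no replicate could be left out for the same reason. The 29 lower regions became 64 at an FDR of 0.05, 9 at 0.001, 6 with called windows from at least 5 sets, 16 with 50 kb windows, between 7 and 13 in single sets, and 4 after recentring. The 1 higher region became 2 at an FDR of 0.05, 8 with no minimum level, and 0 at an FDR of 0.001, with 5 sets, in the single sets with fewest calls, after recentring, and with implied errors and no recentring, an alternative added after seeing the data. At an unadjusted p under 0.05 in the authors' deposited tables, 85 measured windows were higher and 998 lower. Implied errors with no recentring left 26 lower regions, against 4 with recentring. Regions 3, 4 and 7 were not called after recentring, although their best changes moved little. These went from -4.41, -4.48 and -4.16 to -4.29, -4.36 and -4.03. The part that the adjustment over each set has in such losses was not tested. Stricter FDR limits, agreement of sets and single sets admit fewer windows by construction, and for the 50 kb count the cause was not tested. There were more lower than higher regions under each of these alternatives. The median change of -0.15 lay between -0.16 and -0.14 in single sets and was -0.02 after recentring, which removes the shift by construction. The level-matched difference of -0.03 was -0.04 without chromosomes 19 and 22 and -0.06 with means. The floor share of 50.6% was 50.9% and 51.5% with the floor set at a mean level below 1 and below 2, and 49.3% with 50 kb windows. The other 22 alternatives of the main results kept their value to within the spread of the 9 sets, or their count to within 1.5 times. The bin at 65000001 to 70000000 had a median change of -0.22 with 50 kb windows, against -0.32 with 100 kb windows. Depth per library is unknown, and changes at levels below about 7 vary widely between overlapping windows.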
